A study of Mus musculus with 6 samples.

Results

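The genes described here encode proteins of the synaptic vesicle and of the active zone, the patch of presynaptic membrane where vesicles dock and fuse. They were taken by gene symbol from a list of 36 genes, and each of the 36 was matched to a single one of the 31053 genes in the deposited tables. The readout was EPR, the number of C-to-U edits in a gene divided by the number of reads on it. Ribo-STAMP fuses a ribosomal protein to rat APOBEC1, a cytidine deaminase that turns C into U, so that an RNA is edited in the neighbourhood of a ribosome that carries the fusion. EPR was read in 6 bulk RNA-seq libraries, 3 with RPL10A-STAMP and 3 with RPL22-STAMP, in which the editor was joined to mouse Rpl10a or to mouse Rpl22, both proteins of the large ribosomal subunit.

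All 6 libraries came from wild-type C57BL/6J mouse cortical neurons taken at embryonic day 18 and kept as primary cultures. The cultures received floxuridine at day 3 in vitro and the AAV at day 6, were given doxycycline at 1 µg/ml for 48 h and were collected at day 14. The AAV is a Tet-On design in which a synapsin promoter drives the transactivator, so the editor was aimed at neurons, whereas the reads under the edits came from every cell of the culture. The 6 neuron markers examined, among them Map2 and Rbfox3, were edited in every library, with a summed EPR of 0.114 to 0.143 with RPL10A-STAMP and 0.0742 to 0.0896 with RPL22-STAMP. Of 6 astrocyte markers 4 were edited in every library, with a summed EPR of 0.188 to 0.238 with RPL10A-STAMP and 0.109 to 0.257 with RPL22-STAMP. Sums of the fusions were apart for the neuron markers and overlapped for the astrocyte markers. Among the neuron markers Map2, Elavl4 and Nefl were apart, whereas Tubb3, Rbfox3 and Nefm overlapped. These sums are of EPR as deposited, which was higher in general with RPL10A-STAMP. Of 6 oligodendrocyte markers 1 (Mbp) was edited in every library, with Mog and Mobp at 0 throughout, and their summed EPR was 0.0175 to 0.115 with RPL10A-STAMP and 0.0221 to 0.0957 with RPL22-STAMP. None of 6 microglia markers was edited in every library, Aif1, P2ry12, Csf1r and Tmem119 were at 0 in each one, and the summed EPR reached at most 0.0143 with RPL10A-STAMP and 0.0714 with RPL22-STAMP. What part other cell types had in the results was not tested.

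A vesicle is filled with transmitter by a transporter in its membrane, tethered and primed at the active zone by large scaffold proteins such as RIM, Munc13, Bassoon and Piccolo, and fused by the SNARE proteins synaptobrevin, syntaxin and SNAP-25. Synaptotagmin senses the calcium that enters with an action potential and complexin holds and assists the SNARE complex, after which NSF takes the complex apart and dynamin, synaptojanin and amphiphysin take part in recovering the vesicle membrane. In cortical cultures these proteins are made by excitatory and inhibitory neurons, and many of them exist as pairs of closely related paralogs.

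A pair of such families gave the widest differences between the fusions, and the start of their coding sequences is shown because the base composition of the transcripts moved with the result. Each line gives the first 60 coding bases of the GENCODE M21 transcript with the longest coding sequence, on the coding strand, and capitals mark each C that has A or T on both sides. Background for these marks is that APOBEC1 is known to favour cytosines in A- and U-rich sequence. All of these windows lie in coding exons of the GRCm38 (mm10) assembly, at chr7:75206481-75206540 on the minus strand for Sv2b, chr3:96184986-96185045 on the plus strand for Sv2a, chr7:51622635-51622694 on the plus strand for Slc17a6 and chr7:45164083-45164142 on the plus strand for Slc17a7.
Sv2b: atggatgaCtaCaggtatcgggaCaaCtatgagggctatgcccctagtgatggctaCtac
Sv2a: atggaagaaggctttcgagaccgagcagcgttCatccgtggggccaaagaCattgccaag
Slc17a6: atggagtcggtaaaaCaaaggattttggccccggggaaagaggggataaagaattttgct
Slc17a7: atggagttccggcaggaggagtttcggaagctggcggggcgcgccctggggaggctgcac
The Sv2b window held 13 C, 5 of them marked, and the Sv2a window 14 with 2 marked. The Slc17a6 window held 7 C with 1 marked, and the Slc17a7 window 14 with 0 marked. Over the whole transcript the marked share of all C was 33.2% in Sv2b, 24.2% in Sv2a, 35.2% in Slc17a6 and 21.4% in Slc17a7.

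Editing of the family was detected throughout. All 36 members were edited, that is, had an EPR above 0, in 5 of the 6 libraries, and 35 in RPL10A-STAMP replicate 3, where Syn3 was listed at 0. Syn3, which encodes synapsin III, read 0.0164, 0.0113 and 0 with RPL10A-STAMP, against 0.0145, 0.00631 and 0.00518 with RPL22-STAMP, the widest relative scatter of the synapsins. A value of 0 can stand for no edits or for no reads, since neither number was in the tables. The mean EPR over the 6 libraries had a median of 0.0191 over the members, against 0.0135 over the 8046 genes edited in all 6 libraries. In each library between 27 and 32 of the 36 members lay above the median of those genes, and the member median was 1.35 to 1.40 times that median in the RPL10A-STAMP libraries and 1.63 to 1.66 times in the RPL22-STAMP libraries. The median member stood at the 68.3th percentile of the genes edited in a library, averaged over libraries.

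The highest mean belonged to Cplx1 (complexin 1) at 0.0495, followed by Syt1 (synaptotagmin 1) at 0.0464 and Slc17a7 (the vesicular glutamate transporter VGLUT1) at 0.0438. Neighbours in the order of means differed by less than their own spread over the 6 libraries (SD, both fusions together) at all but 2 steps. Those steps were from Slc17a7 down to Syt7 at 0.0324, a gap 1.28 times the SD of Slc17a7, and from Ppfia2 at 0.00773 down to Ppfia3 at 0.00451, a gap 1.06 times the SD of Ppfia2. Ppfia3 and Ppfia2, which encode the scaffold proteins liprin-α3 and liprin-α2, were the lowest of the members. Erc1, a widely expressed relative of the active zone protein ELKS2, stood just above them at 0.00879, while its neuronal paralog Erc2 reached 0.0313.

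**Figure D1:**
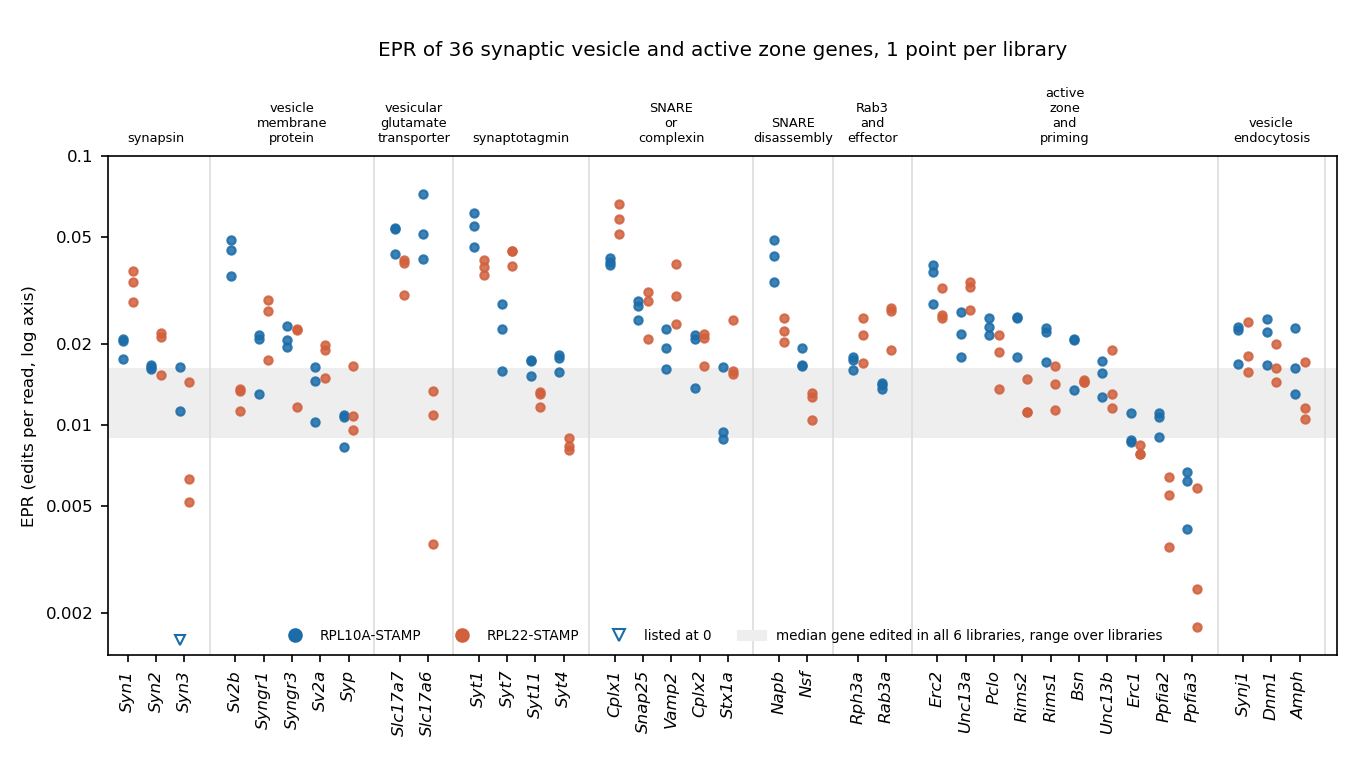
EPR (edits per read, log axis) of each of the 36 members in every library, with RPL10A-STAMP in blue and RPL22-STAMP in orange, grouped by role and ordered by mean within a role; the grey band is the range over libraries of the median gene edited in all 6. Most points lie above the band, the Sv2b and Slc17a6 points split by fusion with RPL10A-STAMP on top, the Syn1, Syt7 and Rab3a points split the other way, and the open triangle marks Syn3 at 0 in 1 library.

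The members were then compared between the fusions. EPR as deposited was higher in general with RPL10A-STAMP, with a library median of 0.0120, 0.0153 and 0.0161 in its 3 libraries and 0.00907, 0.0129 and 0.0112 in the RPL22-STAMP libraries. Each library was therefore divided by its own median, and changes are relative to the median gene. Log2 fold changes are those of RPL10A-STAMP over RPL22-STAMP on the log2(EPR + 0.01) scale, with p-values from limma adjusted over all 8046 genes. The added 0.01 is close to the median mean EPR of the tested genes, 0.0135. It therefore understates changes throughout, and those of low values the most. For Sv2b the means after the division were 0.0375 and 0.0146, and the log2 fold change on this scale was 0.95. Of the 35 members tested, 10 (28.6%) passed an adjusted p of 0.05, where 14.3% of all tested genes did. The members also had a smaller spread within a fusion (median SD 0.0997, against 0.224), which makes passing easier. They were not set against genes of like spread. Slc17a6 and Sv2b, 2 members (5.71%, against 8.51% of all genes), were higher under RPL10A-STAMP. The 8 others (22.9%, against 5.77% of all genes) were higher under RPL22-STAMP, namely Syt7, Syn1, Vamp2, Rab3a, Unc13a, Stx1a, Syngr1 and Sv2a. The median log2 fold change was -0.07 over the members and -0.01 over all tested genes, and 21 of the 35 members had a negative value, as had 51.3% of all genes. The methods call the 3 samples of a fusion biological replicates while the text of the study speaks of technical ones, so the p-values measure only the spread between these samples, which may be technical.

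The division by the median decided much of this split. Without it Slc17a6 and Sv2b were the only members called, where 1085 of all 8046 genes were. None of the 8 members higher with RPL22-STAMP was, their limma adjusted p lying between 0.0598 for Syt7 and 0.474 for Syngr1. Over all genes the same change moved the share of calls that were higher with RPL10A-STAMP from 59.6% to 88.1%, and the median log2 fold change from -0.01 to 0.18, with the member median at 0.13. In the values as deposited, 13 of the 35 tested members had all RPL10A-STAMP libraries above all RPL22-STAMP libraries (37.1%, against 28.2% of all genes) and 6 the reverse (17.1%, against 6.21%). Those 6 were Syn1, Syt7, Vamp2, Cplx1, Rab3a and Unc13a. Without regard to direction the groups stayed apart in 19 members (54.3%, against 34.4% of all genes) as deposited and in 22 (62.9%, against 37.1%) after the division. With all libraries 10 members were called, among 1149 genes. Without RPL10A-STAMP replicate 1, 2 or 3 the members called were 6, 3 and 3, among 667, 430 and 373 genes called. Without RPL22-STAMP replicate 1, 2 or 3 they were 6, 8 and 4, among 874, 747 and 616 genes called. Syn1, Sv2b and Syt7 were called whichever library was left out.

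**Figure D2:**
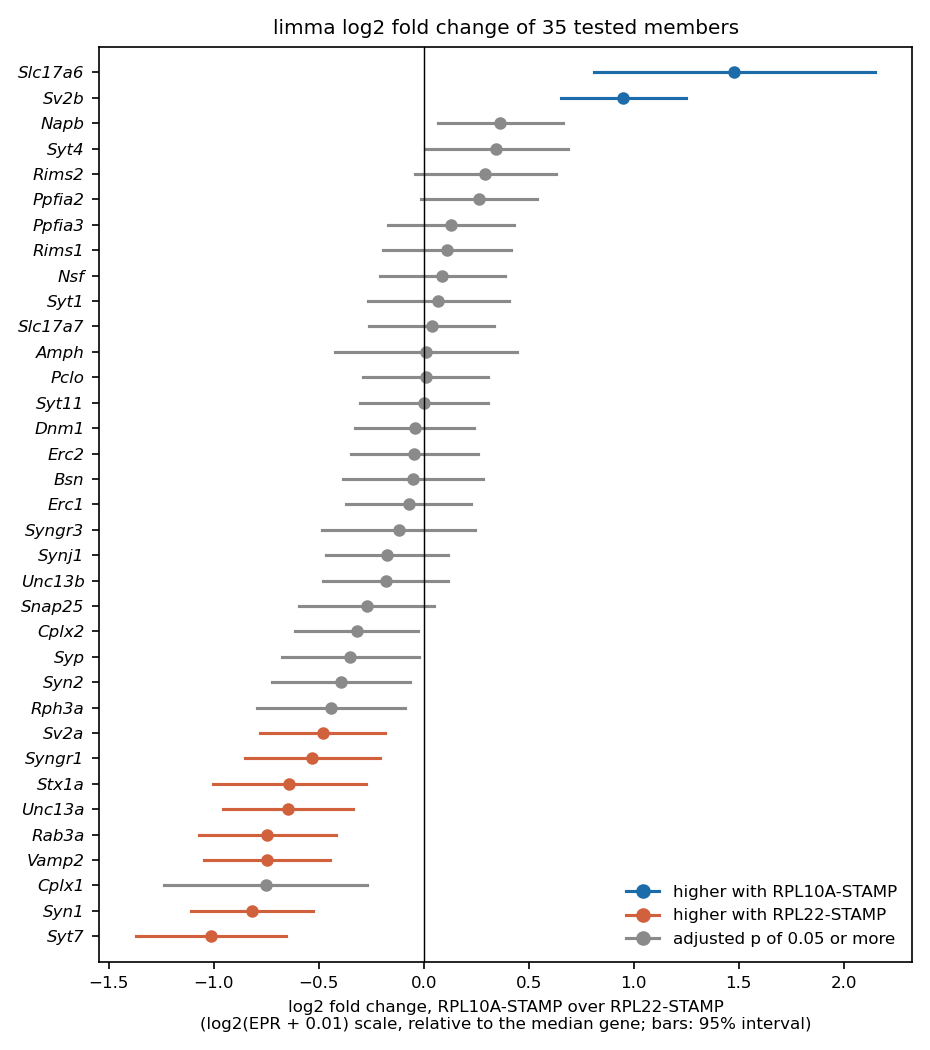
limma log2 fold change of EPR, RPL10A-STAMP over RPL22-STAMP, for the 35 tested members in order, on the log2(EPR + 0.01) scale and relative to the median gene; points are estimates, bars 95% intervals, and grey marks an adjusted p of 0.05 or more. Slc17a6 at 1.48 and Sv2b at 0.95 stand clear of the rest at the top, and Syt7 at -1.01 and Syn1 at -0.82 lie at the bottom.

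Among the proteins of the vesicle membrane the paralogs of SV2, a glycoprotein of the vesicle that serves as a receptor for botulinum neurotoxin A, went opposite ways. Sv2b (ENSMUSG00000053025, chr7:75114894-75309262) had an EPR of 0.0358, 0.0489 and 0.0449 in the RPL10A-STAMP libraries and of 0.0113, 0.0137 and 0.0134 in the RPL22-STAMP libraries. The groups did not overlap, and the lowest library of the first stood far above the highest of the second. Its means were 0.0432 ± 0.00671 and 0.0128 ± 0.00133 (SD, n = 3 each), a ratio of 3.38 as deposited, and its log2 fold change was 0.95 (SE 0.13, limma adjusted p = 0.00555). Sv2a (chr3:96181151-96195521) read 0.0103, 0.0147 and 0.0164 with RPL10A-STAMP, against 0.0150, 0.0191 and 0.0199 with RPL22-STAMP. These ranges overlapped as deposited, and after division by the library median the RPL22-STAMP libraries lay above the others. The log2 fold change of Sv2a was -0.48 (SE 0.13, limma adjusted p = 0.0472), close to the threshold.

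Syngr1 and Syngr3 encode synaptogyrins, small tetraspan proteins of the vesicle. Syngr1 (chr15:80091334-80119501) had 0.0130, 0.0216 and 0.0209 with RPL10A-STAMP, against 0.0175, 0.0292 and 0.0265 with RPL22-STAMP, again overlapping as deposited. Its log2 fold change was -0.53 (SE 0.14, limma adjusted p = 0.0432), and the call was lost without any 1 of the 6 libraries, as were those of Sv2a and of Stx1a described below. Syngr3 did not pass the test (log2 fold change -0.12, 95% interval -0.49 to 0.25). Syp, which encodes the abundant vesicle protein synaptophysin, lay between 0.00832 and 0.0109 with RPL10A-STAMP and between 0.00961 and 0.0166 with RPL22-STAMP, with an adjusted p of 0.136. Of its exon bases 16.8% are shared with Gm14703 on the other strand, as are 14.1% of those of Syn3 with Timp3, 14.5% of those of Syt4 with Gm26658 and 11.8% of those of Erc1, and whether reads were counted by strand was not given in the sources used here.

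The vesicular glutamate transporters load glutamate into vesicles, and Slc17a7 (VGLUT1) is the main form of mature cortical neurons while Slc17a6 (VGLUT2) prevails in subcortical neurons and in the developing cortex. Slc17a6 (ENSMUSG00000030500, chr7:51622006-51671119) read 0.0416, 0.0722 and 0.0515 with RPL10A-STAMP, against 0.0134, 0.00363 and 0.0109 with RPL22-STAMP. The groups were far apart, yet the RPL22-STAMP libraries spread more than 3-fold among themselves. The means were 0.0551 ± 0.0156 and 0.00931 ± 0.00507 (SD, n = 3 each), a ratio of 5.92, and the log2 fold change was 1.48 (SE 0.28, limma adjusted p = 0.0185). That p rose to 0.0639, 0.0564 and 0.0505 without RPL10A-STAMP replicate 2, RPL10A-STAMP replicate 3 and RPL22-STAMP replicate 3. Slc17a7 had 0.0431, 0.0534 and 0.0542 with RPL10A-STAMP, against 0.0306, 0.0411 and 0.0402 with RPL22-STAMP. It was among the most edited members with both fusions and did not pass the test (log2 fold change 0.04, 95% interval -0.26 to 0.33). EPR is edits over reads and does not give the amount of a transcript. In these bulk samples it pools the edits and reads of all cells that carry the transcript. A difference in the mix of cells and one within cells therefore cannot be told apart.

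Synapsins coat the vesicle and tie it to the reserve pool. Syn1 (chrX:20860511-20921004) read 0.0176, 0.0208 and 0.0206 with RPL10A-STAMP, against 0.0286, 0.0374 and 0.0342 with RPL22-STAMP. Every RPL22-STAMP library lay above every RPL10A-STAMP library in the values as deposited. The ratio of the means was 1.70 in favour of RPL22-STAMP and the log2 fold change was -0.82 (SE 0.12, limma adjusted p = 0.00814). Syn2 had a mean of 0.0164 ± 0.000269 with RPL10A-STAMP and 0.0195 ± 0.00358 with RPL22-STAMP (SD, n = 3 each), with an adjusted p of 0.105. Syn3 was not tested because of its 0.

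Of the 4 synaptotagmins only Syt7, which encodes a slow, high-affinity calcium sensor, was called, where 14.3% of all tested genes were. Syt7 (chr19:10389090-10453180) had 0.0159, 0.0282 and 0.0228 with RPL10A-STAMP, against 0.0390, 0.0443 and 0.0442 with RPL22-STAMP. The groups were clearly separate, with a ratio of means of 1.91 in favour of RPL22-STAMP and the lowest log2 fold change of the members, -1.01 (SE 0.15, limma adjusted p = 0.00798). Of its exon bases 5.13% lie opposite Gm26859. Syt1, the fast sensor of synchronous release, had 0.0460, 0.0549 and 0.0613 with RPL10A-STAMP, against 0.0360, 0.0388 and 0.0412 with RPL22-STAMP. Its groups did not overlap as deposited but did once each library was set to its median, and its log2 fold change was 0.07 (95% interval -0.27 to 0.41). Syt11, an atypical form that does not bind calcium, gave 0.00 (95% interval -0.30 to 0.31). Syt4, likewise atypical, had means of 0.0172 and 0.00847, a ratio of 2.03 as deposited, and a log2 fold change of 0.35 with an adjusted p of 0.156.

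All 5 SNARE and complexin genes had negative log2 fold changes, as had 51.3% of all tested genes. Without the division by the median Snap25 turned to 0.0081. Of these 5 genes 2 were called, where 14.3% of all tested genes were. Vamp2 (synaptobrevin 2, the vesicle SNARE, chr11:69088490-69092384) read 0.0161, 0.0194 and 0.0227 with RPL10A-STAMP, against 0.0239, 0.0398 and 0.0302 with RPL22-STAMP. The groups lay next to each other without overlap, and the log2 fold change was -0.75 (SE 0.13, limma adjusted p = 0.0127). Leaving out RPL10A-STAMP replicate 2 or 3 gave an adjusted p of 0.0537 or 0.0539. Stx1a (syntaxin 1A, a SNARE of the plasma membrane, chr5:135023482-135051100) read 0.00892, 0.00948 and 0.0165 with RPL10A-STAMP, against 0.0155, 0.0247 and 0.0159 with RPL22-STAMP. A single RPL10A-STAMP library reached into the RPL22-STAMP range, and the log2 fold change was -0.64 (SE 0.15, limma adjusted p = 0.0368).

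Cplx1, the most edited member, read 0.0419, 0.0394 and 0.0404 with RPL10A-STAMP, against 0.0583, 0.0511 and 0.0661 with RPL22-STAMP. The groups did not overlap as deposited, but the log2 fold change of -0.75 (SE 0.21) had an adjusted p of 0.0525 and was not called. Cplx2, its paralog, gave -0.32 with an adjusted p of 0.133. Snap25, the third SNARE of the complex, had a mean EPR of 0.0271 with each fusion and a log2 fold change of -0.27 (95% interval -0.59 to 0.05).

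Both genes of SNARE disassembly had their 3 highest EPR values as deposited in the RPL10A-STAMP libraries, and neither was called. Napb, which encodes β-SNAP, the adaptor of NSF, read 0.0340, 0.0424 and 0.0490 with RPL10A-STAMP, against 0.0204, 0.0251 and 0.0223 with RPL22-STAMP. All 3 RPL10A-STAMP libraries stood above the others, before and after division by the median, and the log2 fold change was 0.36 (SE 0.13, limma adjusted p = 0.101). Nsf, the ATPase itself, gave 0.09 (95% interval -0.21 to 0.39).

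Rab3a is the main small GTPase of the synaptic vesicle and Rph3a encodes its effector rabphilin. Rab3a (chr8:70754679-70758677) read 0.0143, 0.0137 and 0.0141 with RPL10A-STAMP, against 0.0190, 0.0265 and 0.0272 with RPL22-STAMP. The RPL10A-STAMP libraries agreed closely and all lay below the others, with a log2 fold change of -0.74 (SE 0.14, limma adjusted p = 0.0164). Leaving out RPL10A-STAMP replicate 2 or 3, or RPL22-STAMP replicate 3, raised it to 0.0674, 0.0704 and 0.0512. Rph3a had 0.0175, 0.0160 and 0.0179 with RPL10A-STAMP, against 0.0170, 0.0216 and 0.0251 with RPL22-STAMP. Its ranges overlapped, and the log2 fold change of -0.44 (SE 0.15) had an adjusted p of 0.0946.

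Of the 10 active zone and priming genes 1 was called, where 14.3% of all tested genes were. Unc13a (Munc13-1, the main priming factor of excitatory synapses, chr8:71624417-71671757) read 0.0179, 0.0264 and 0.0218 with RPL10A-STAMP, against 0.0268, 0.0341 and 0.0325 with RPL22-STAMP. The groups only just missed each other, and the log2 fold change was -0.65 (SE 0.13, limma adjusted p = 0.0221). Leaving out RPL10A-STAMP replicate 1, 2 or 3 raised it to 0.0643, 0.0544 and 0.0879, and leaving out RPL22-STAMP replicate 1 or 3 to 0.0524 and 0.0612. Unc13b, its paralog, gave -0.18 (95% interval -0.48 to 0.11).

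Erc2 was the most edited gene of this group, with 0.0283, 0.0370 and 0.0394 for RPL10A-STAMP and 0.0251, 0.0322 and 0.0256 for RPL22-STAMP. Its log2 fold change was -0.04 (95% interval -0.35 to 0.26). Bsn and Pclo, which encode the giant scaffolds Bassoon and Piccolo, gave -0.05 (95% interval -0.38 to 0.28) and 0.01 (95% interval -0.29 to 0.31). Rims1 and Rims2, the RIM scaffolds that bind Rab3 and calcium channels, gave 0.11 and 0.29 with adjusted p of 0.605 and 0.212. The rest of the group, Erc1, Ppfia2 and Ppfia3, lay between -0.07 and 0.26. Of the exon bases of Ppfia2 24.5% are shared with C230021G24Rik and Acss3 on the other strand.

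None of the 3 endocytosis genes was called, where 14.3% of all tested genes were. Synj1 (synaptojanin 1, a lipid phosphatase that helps uncoat vesicles) was the most edited of them, with 0.0169, 0.0232 and 0.0226 for RPL10A-STAMP and 0.0158, 0.0241 and 0.0181 for RPL22-STAMP. The ranges overlapped almost fully and the log2 fold change was -0.18 (95% interval -0.47 to 0.11). Dnm1, the neuronal dynamin that cuts the vesicle from the membrane, gave -0.04 (95% interval -0.33 to 0.24). Amph, the dynamin-binding amphiphysin, gave 0.01 (95% interval -0.42 to 0.44).

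A ratio of one paralog to the other within a library needs no scaling between libraries. It was taken for 12 pairs, which were chosen after the values were seen, so no p-value is given for them. The ratios of the fusions did not overlap in 8 of the 12. The share among other gene pairs was not computed, and 34.4% of single genes stayed apart as deposited. Most of these 8 pairs hold a member called by limma, so the count is not a separate result. Sv2b over Sv2a came to 3.50, 3.34 and 2.74 in the 3 RPL10A-STAMP libraries, against 0.752, 0.716 and 0.673 in the RPL22-STAMP ones. The order of these paralogs was thus turned, with Sv2b the more edited gene under RPL10A-STAMP and Sv2a under RPL22-STAMP. Slc17a6 over Slc17a7 came to 0.964, 1.35 and 0.949 under RPL10A-STAMP, near parity, and only 0.438, 0.0884 and 0.271 under RPL22-STAMP. Syt7 over Syt1 came to 0.345, 0.514 and 0.372 under RPL10A-STAMP, against 1.08, 1.14 and 1.07 under RPL22-STAMP, another pair whose order turned. Smaller shifts were found for Syn1 over Syn2, Syngr1 over Syngr3, Syt4 over Syt11, Unc13a over Unc13b and Rims2 over Rims1, each between 1.23-fold and 1.54-fold. The ratios overlapped for Cplx1 over Cplx2, Bsn over Pclo, Erc2 over Erc1 and Ppfia2 over Ppfia3. Erc2 over Erc1 lay between 3.26 and 4.19 under RPL10A-STAMP and between 3.02 and 4.11 under RPL22-STAMP.

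**Figure D3:**
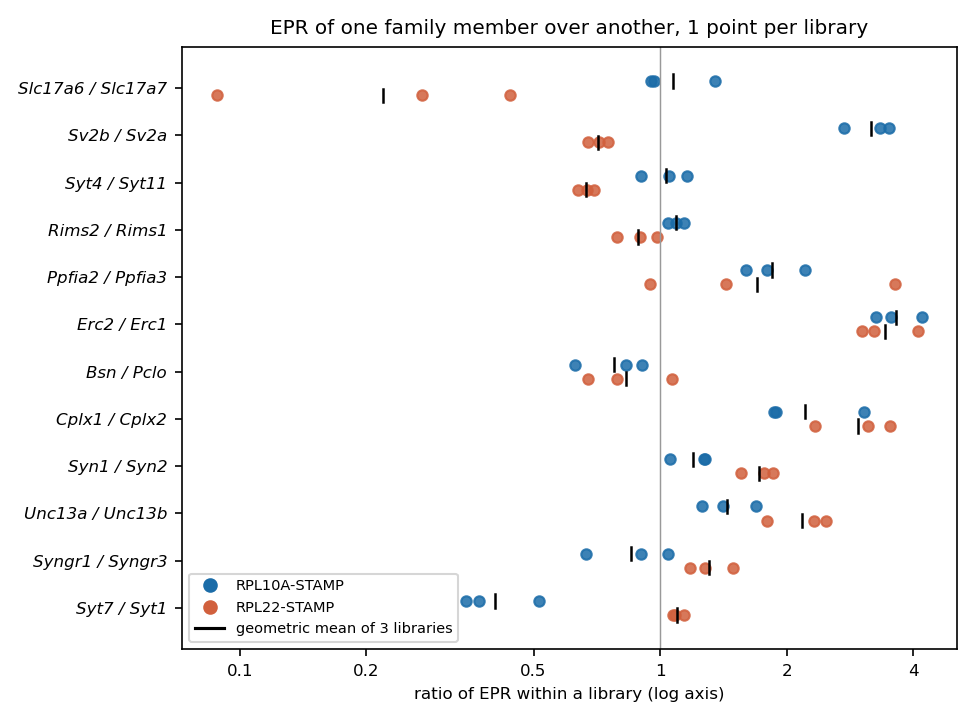
EPR of one family member divided by that of another in the same library (log axis), 1 point per library, RPL10A-STAMP in blue and RPL22-STAMP in orange; black ticks are geometric means of 3 libraries and the grey line is parity. The points of Sv2b over Sv2a (2.74 to 3.50 against 0.673 to 0.752) and of Syt7 over Syt1 (0.345 to 0.514 against 1.07 to 1.14) lie on opposite sides of parity, and those of Erc2 over Erc1 overlap.

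The fold changes moved with the base composition of the transcripts. Transcript GC content was 53.7% for the median member and 48.9% for the median tested gene. The rank correlation of log2 fold change with GC content was -0.563 across the 35 members (Pearson -0.627) and -0.467 across 8039 tested genes, and genes of 1 set of libraries are not independent replicates. With the share of C that has A or T on both sides it was 0.570 across the members and 0.436 across all genes. The members called higher with RPL22-STAMP were all among the 18 that belong to the most GC-rich 2010 tested genes, above 53.6% GC, where 8 of 18 members (44.4%) and 12.7% of all genes were called in that direction. Sv2b at 46.8% GC and Slc17a6 at 42.9% were poorer in GC, as against 54.2% for Sv2a and 59.4% for Slc17a7. The Slc17a7 transcript used holds only 43 bases of 3' untranslated region, and those of Syt7 and Rims2 hold none, so these GC values rest almost on coding bases alone. Over the coding sequence GC was 50% for Sv2b, 48.9% for Slc17a6, 55.7% for Sv2a and 58.4% for Slc17a7. When the trend with GC content was removed from each library, Sv2b (0.86, adjusted p = 0.0125) and Slc17a6 (1.21, adjusted p = 0.0465) were still called by limma, and 8.25% of all genes were. The 8 members higher with RPL22-STAMP still had a negative log2 fold change, from -0.64 for Syt7 to -0.23 for Syngr1, and none passed, Syt7 having an adjusted p of 0.0518 and Syn1 of 0.0559. Of the 18 members in the GC-rich group 16 (88.9%) had a negative log2 fold change, against 76.7% of all genes there, and the exceptions were Slc17a7 at 0.04 and Ppfia3 at 0.13.

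**Figure D4:**
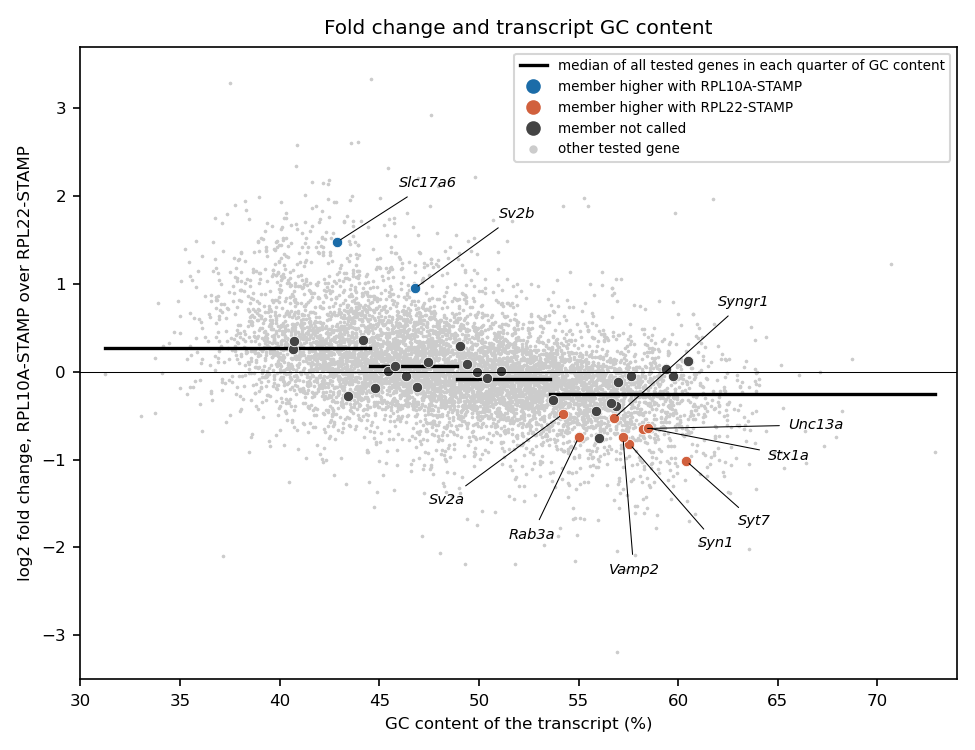
log2 fold change of EPR (RPL10A-STAMP over RPL22-STAMP, relative to the median gene) against the GC content of the transcript in percent, with tested genes in grey, members higher with RPL10A-STAMP in blue, members higher with RPL22-STAMP in orange and other members in dark grey; black lines are medians of all tested genes over equal-sized groups of GC content. The medians step down from 0.27 to -0.25, the orange points lie below the last line at the GC-rich side, and the blue points lie above the lines at the GC-poor side.

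The members varied less between replicates than genes in general. The median SD of log2(EPR + 0.01) within a fusion was 0.0997 over the members and 0.224 over all tested genes. Members also had a higher EPR, with a median of 0.0191 against 0.0135, and depth per gene is unknown. Whether either of these goes with the smaller spread was not tested. Dnm1 at 0.0463 and Slc17a7 at 0.0556 were the steadiest, and Slc17a6 at 0.425 and Cplx1 at 0.271 the most variable. The median transcript of a member was 4180 bases long, against 3455 bases over all tested genes.

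A further list of 88 presynaptic genes gave the surroundings of the family, of which 74 were edited in all 6 libraries and tested. Of these 16 (21.6%, against 14.3% of all tested genes) were called, with a median log2 fold change of -0.23. Higher under RPL10A-STAMP were 4 of the 74, where 8.51% of all genes were, and 12 were higher under RPL22-STAMP, where 5.77% of all genes were. Stxbp5, which encodes tomosyn, a protein that binds syntaxin in place of synaptobrevin and restrains fusion, had the largest value of the list. It read 0.0474, 0.0852 and 0.0889 with RPL10A-STAMP, against 0.0105, 0.0199 and 0.0153 with RPL22-STAMP, a log2 fold change of 1.43 (SE 0.17, limma adjusted p = 0.00472). Its paralog Stxbp5l gave 1.22 (SE 0.29, adjusted p = 0.0334), and Lin7a, a scaffold of the presynaptic Cask complex, gave 0.72 (SE 0.18, adjusted p = 0.0400). At the other end stood Ppfia4, another liprin-α, at -1.60 (SE 0.33, limma adjusted p = 0.0229), and Doc2a, a calcium sensor of spontaneous release, at -1.05 (SE 0.21, adjusted p = 0.0215).

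Clathrin, the coat of endocytic vesicles, was split by chain. The light chain gene Clta read 0.00513, 0.00640 and 0.0101 with RPL10A-STAMP, against 0.0172, 0.0249 and 0.0255 with RPL22-STAMP, a log2 fold change of -1.14 (SE 0.14, limma adjusted p = 0.00472). Cltb, the other light chain, gave -1.03 (SE 0.13, adjusted p = 0.00502). The heavy chain gene Cltc went the opposite way, with 0.0185, 0.0228 and 0.0304 for RPL10A-STAMP and 0.00672, 0.0107 and 0.00724 for RPL22-STAMP and a log2 fold change of 0.67 (SE 0.13, limma adjusted p = 0.0210). Cltb and Cltc fall outside the rule for named genes and were picked after their values were seen. By role, the calls were 2 of 9 calcium sensors, 5 of 14 SNAREs and SNARE regulators, 3 of 14 active zone genes, 0 of 7 Rab3 genes and regulators, 2 of 9 vesicle membrane genes and 4 of 21 endocytosis genes, with 14.3% of all tested genes called. Without division by the library median 11 of the 74 were called, where 1085 of all 8046 genes were. With the GC trend removed 7 of the 73 that had a transcript were called, where 663 of 8039 genes (8.25%) were. In these fits the list was thus closer to all genes than in the main fit. Stxbp5, Clta and Cltb were called in both of these fits, and Stxbp5l, Lin7a, Ppfia4, Doc2a and Cltc in the first alone.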

How the data were processed

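RNA-seq of 6 libraries, polyA-selected, was analysed. Per the methods, the authors ran cutadapt and then STAR against mm10, where a read could map to as many as 10 places, and obtained edits from SAILOR and read counts from featureCounts. They deposited the ratio of edits to reads per gene (EPR), without normalization between libraries. The gene annotation and strand setting are not given in the sources used here. Depth per gene is unknown, so no counting interval is given. Genes responding to doxycycline, which the study left out later, were kept.

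Gene identifiers were named through GENCODE mouse release 21 (31011 of 31053 found). Genes with EPR above 0 in all 6 libraries (8046) were tested with limma 3.58.1 (R 4.3.3; lmFit, eBayes with trend) on log2(EPR + 0.01). Before this step, EPR was brought to a common median by dividing each library by its own median over these genes, times the geometric mean over the 6 medians. Benjamini-Hochberg adjustment ran over all tested genes at 0.05. An exact permutation test of 3 against 3 libraries cannot go below p = 0.10. It was run on the 12 paralog ratios alone, and its p-values were not used. Of each transcript set the one with the longest coding sequence gave GC content. The fit was tested on simulated data. Other settings were the scaling, pseudocount, filter, variance trend, length and GC trends (splines of 4 degrees of freedom), a replicate block and leaving out each library.

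All members could be named. Values per library are given for called members and the most edited of each role. Outside this rule they are also given for Syn3, which was listed at 0 in RPL10A-STAMP replicate 3. Of the other presynaptic genes, the 3 called ones with the largest and the 3 with the most negative log2 fold change are named. Cltb and Cltc were added outside the rule. The members, gene lists and tests were chosen with earlier results of these data known.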

Additional observations from a re-analysis of the deposited data

How the results depend on the processing

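Depth per gene is unknown, each fusion has 3 libraries, and the fold changes rest on a division by the library median, which sets what counts as no change. Of the 10 called members, each fitted under 18 other settings, 108 fits passed the test and 72 had the same direction without passing. Sv2b passed in 17 of 18, Syn1 and Syt7 in 15, and Slc17a6 in 12. Pseudocounts of 0.001 or 0.05 or none, a scaling to the 75th percentile, the fit without a variance trend and the length trend moved the counts of called members, higher or lower, by less than 1.5 times. Cplx1 passed with the 75th percentile scaling, without the variance trend and without RPL22-STAMP replicate 2 (adjusted p = 0.0416, 0.0488 and 0.0345). The median percentile of member EPR was 69.5 among genes edited in all 6 libraries and 66.8 to 70.3 with a library left out.

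Without scaling, 1085 of 8046 genes were called, with 2 members, both higher with RPL10A-STAMP, leaving 0 for RPL22-STAMP. With the GC trend removed, 663 genes were called, with 2 members (0 higher with RPL22-STAMP) and 7 other presynaptic genes. With genes edited in at least 3 libraries, 754 genes were called, with 5 members higher with RPL22-STAMP and 7 other presynaptic genes. Sv2b and Slc17a6 were called there too, higher with RPL10A-STAMP. With no filter, 569 genes were called, with 5 members (1 higher with RPL10A-STAMP, 4 with RPL22-STAMP) and 5 other presynaptic genes. Both of these settings tested more genes than 8046, so their counts cannot be read as shares of that number. With 1 library left out, 373 to 874 genes were called, 3 to 8 members (1 to 2 higher with RPL10A-STAMP, 2 to 6 with RPL22-STAMP) and 3 to 14 other presynaptic genes. Leaving out libraries leaves less power by construction, and for the other settings the cause was not tested.

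Replicate numbers are shared by the fusions, but deviations from the group means correlated at 0.044, 0.046 and -0.0055 within the same number, so the samples share only a number. RPL10A-STAMP replicates 1 and 2 correlated best with their own number and replicate 3 did not. With the replicate block 603 genes were called, with 4 members (1 higher with RPL10A-STAMP, 3 with RPL22-STAMP) and 6 other presynaptic genes. With the block and the GC trend removed together, 227 genes were called, with 0 members in either direction and 2 other presynaptic genes.

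Signs turned only in members that were not called. With the GC trend removed, with or without the replicate block, the log2 fold change was 0.19 for Syngr3, -0.067 for Syt1, -0.0052 for Syt4, 0.32 for Bsn, -0.14 for Pclo, 0.0039 for Erc1, -0.088 for Ppfia2 and 0.28 for Dnm1. Without scaling it was 0.13 for Syngr3, 0.0081 for Snap25, 0.046 for Unc13b, 0.20 for Bsn, 0.11 for Erc1, 0.25 for Erc2, 0.21 for Dnm1 and 0.081 for Synj1. With the 75th percentile scaling it was -0.028 for Slc17a7, -0.045 for Syt11, -0.044 for Pclo and -0.034 for Amph. With the length trend removed it was -0.061 for Syt11 and -0.32 for Pclo. With a library left out it ranged from -0.023 to 0.14 for Syt1, -0.052 to 0.049 for Syt11, -0.13 to 0.033 for Bsn, -0.043 to 0.042 for Pclo, -0.096 to 0.0093 for Erc2 and -0.10 to 0.15 for Amph.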
